A study of Mus musculus with 16 samples.

Results

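Unlabelled thymic epithelial cells with low surface MHC class II were compared with unlabelled thymic epithelial cells with high surface MHC class II, gene by gene. The series calls its sorted cells medullary (mTEC), but the gate held no marker of medulla or cortex, and cortical markers were found in both populations, at higher levels in RFP- MHCIIhi. The comparison took every library sorted as RFP- MHCIIlo and every library sorted as RFP- MHCIIhi, 4 of each and 8 of the 16 in the series. Of the 43432 genes in the files, 19617 passed the filter on low counts and were tested. Both populations came from C57BL6.Aire-CreERT2.Ai14 mice of mixed sex, aged 5 to 6 weeks, which had been given 2 mg tamoxifen and were taken 7 days later. In these mice a tamoxifen-inducible Cre driven by Aire turns on a red fluorescent protein (RFP) from the Ai14 reporter in cells that express Aire at the pulse, and their descendants keep it. RFP- cells were therefore not labelled at the pulse, but they may have expressed Aire before or after it, or during it without being labelled. Both populations carried the same alleles and had received tamoxifen. Live cells (DAPI-) that were CD45- and EPCAM+ were sorted by MHC class II, and 12 thymi were pooled for each biological replicate, and the p-values therefore reflect variation from pool to pool. The 8 libraries of RFP+ MHCIIlo and RFP+ MHCIIhi cells, 4 of each, came from the same design. They entered the filter and the estimate of the spread behind every test, and their values are given where the gate difference among unlabelled cells is set against that among labelled cells.

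Medullary thymic epithelial cells show self antigens to developing T cells, and T cells that bind them strongly are removed or turned into regulatory cells. Cells with high MHC class II are known for Aire, which switches on many genes of other tissues, and for the molecules that present their products. Cells with low MHC class II are known to be a mixture of immature epithelial cells and of mature cells that resemble epithelia of other tissues, among them tuft cells, the chemosensory cells of gut and airway.

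The RFP- MHCIIlo libraries held 10.35 to 13.8 M counts from 80500 to 102800 sorted cells, and the RFP- MHCIIhi libraries 11.6 to 19.46 M counts from 114000 to 150900 sorted cells. Ribosomal RNA of the mitochondrion took 42.7 ± 3.06% of the counts in RFP- MHCIIlo cells, against 34.1 ± 1.86% in RFP- MHCIIhi cells (SD over 4 libraries). Values below are read counts scaled to library size (CPM), with ± for the SD over 4 libraries, and fold changes are log2 values of RFP- MHCIIlo over RFP- MHCIIhi from the edgeR quasi-likelihood fit, with their SE. A gene was called when its p-value, adjusted over the 19617 genes, was under 0.05. In bulk libraries, fewer cells of a type and less RNA per cell cannot be told apart.

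The 2 populations differed over most of the genes measured. The test called 13553 genes (69.1% of those tested), of which 6564 (33.5%) were higher and 6989 (35.6%) lower in RFP- MHCIIlo. With a change of more than 2-fold also asked for, 3085 genes (15.7%) were higher and 4375 (22.3%) lower. The median log2 fold change over all tested genes was -0.0041. The scaling sets this median near 0, so it says nothing about the direction of genes as a whole. With the 8 RFP- libraries fitted alone, 2853 genes were higher and 4099 lower past 2-fold. Counts of higher and lower members of each gene list below are read against the 33.5% and 35.6% over all tested genes. For 12813 tested genes (65.3%) the 4 RFP- MHCIIlo libraries did not overlap the 4 RFP- MHCIIhi libraries, and the same held for 91.0% of called genes. Among genes named below as called the groups overlapped only for *Cldn7*, *Igf2* and *Oasl1*. The 15 largest changes per direction were chosen for no overlap, so its absence there is no result. The sizes of the changes were not symmetric. Past 8-fold there were 254 called genes higher and 1607 lower, and past 32-fold 12 higher and 454 lower. The excess of lower genes past 2-fold lay at low levels, by the mean of both groups. From 0 to 1 CPM 14.0% of genes were higher and 43.9% lower, and from 1 to 10 CPM 18.1% and 30.6%. From 10 to 100 CPM the shares were 14.0% and 10.3%, and above 100 CPM 16.5% and 12.2%. Mean levels under 0.5 CPM in RFP- MHCIIlo together with 5 CPM or more in RFP- MHCIIhi were found for 285 genes, and the converse for 13. Of 16787 protein-coding genes 13.6% were higher and 22.7% lower by over 2-fold, whereas of 712 genes annotated as antisense 28.5% were higher and 19.0% lower. Whether strand was used in the counting is not given in the sources used here. Reads of an antisense gene may therefore belong to its partner.

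**Figure D1:**
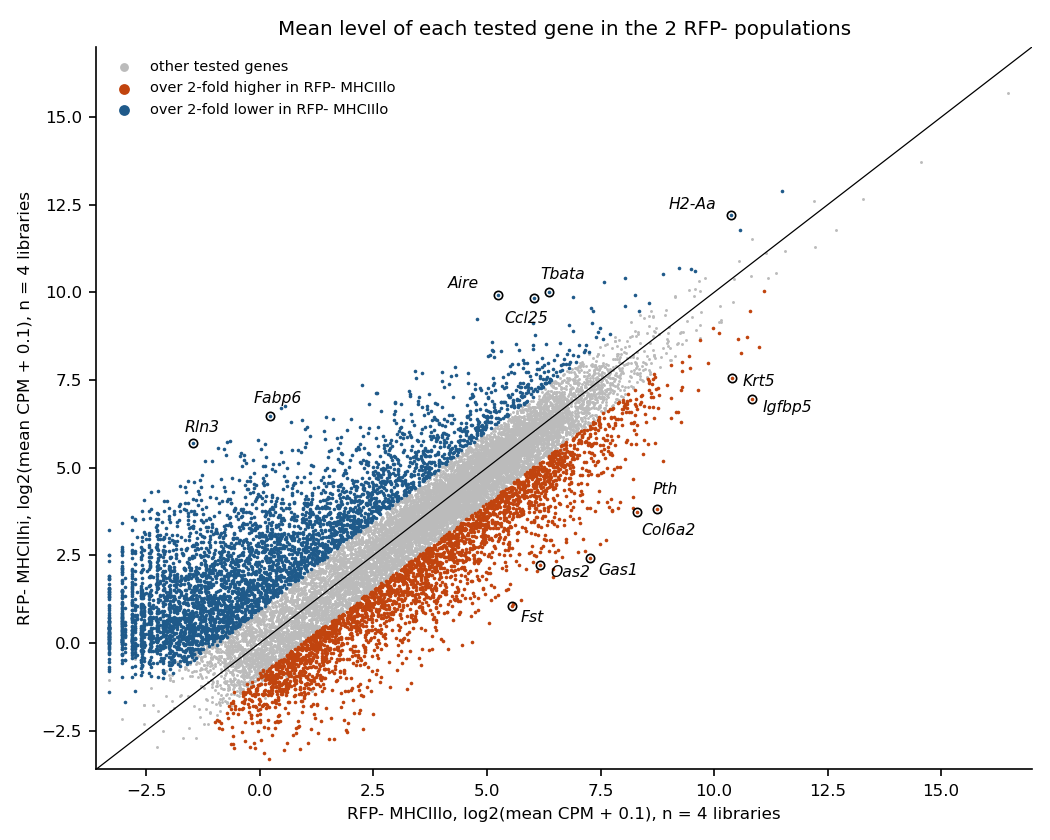
Mean level of each of the 19617 tested genes in RFP- MHCIIlo (x axis) and RFP- MHCIIhi (y axis), both as log2(mean CPM + 0.1) over 4 libraries, with the line of equal levels. The 4375 genes lower by over 2-fold (blue) reach much farther from the line than the 3085 higher genes (red), and 13 genes named in the text are circled. The larger share of lower genes holds under a mean of 10 CPM and not above it.

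The sort gate was read first, since it defines the groups and is no finding. All 11 genes of the MHC class II list were lower in RFP- MHCIIlo, with a median log2 fold change of -1.48. *H2-Aa*, the alpha chain of I-A, had 1010.1, 1199, 1374 and 1695 CPM in the RFP- MHCIIlo libraries, against 4755, 4586, 4569 and 4903 CPM in the RFP- MHCIIhi libraries. *Ciita*, the co-activator that switches these genes on, had 62.8, 69.6, 84.6 and 77.9 CPM in the RFP- MHCIIlo libraries, against 158, 174, 159 and 149 CPM in the RFP- MHCIIhi libraries. The groups did not overlap for either gene, and RFP- MHCIIlo cells still held 5415 to 7921 summed CPM of the list, against 17443 to 19064 in RFP- MHCIIhi cells. The promoters of these genes are known for a set of upstream boxes on which CIITA is assembled, and 3 of them are shown: *H2-Aa* and *H2-Eb1* encode surface class II chains, the kind of molecule the gate was set on, and *H2-Oa* acts in peptide loading. The letters GATTGG, the core of the box called Y, were searched on both strands from 250 bases before to 50 after each start. They stood in 8 of the 8 list genes with an entry in RefSeq (GRCm38.p6), against 18.2% of the 27025 genes in that table, and *H2-Ab1*, *Cd74* and *Ciita* had no entry. Each stretch is the 200 bases before the start on the strand of the gene, with the searched letters or their reverse complement in capitals, and where a gene has several entries the one with most matches is given.
H2-Aa: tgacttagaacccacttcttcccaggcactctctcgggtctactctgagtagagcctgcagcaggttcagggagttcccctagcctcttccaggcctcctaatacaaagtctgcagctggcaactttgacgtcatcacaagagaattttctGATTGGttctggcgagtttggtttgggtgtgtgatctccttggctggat
H2-Eb1: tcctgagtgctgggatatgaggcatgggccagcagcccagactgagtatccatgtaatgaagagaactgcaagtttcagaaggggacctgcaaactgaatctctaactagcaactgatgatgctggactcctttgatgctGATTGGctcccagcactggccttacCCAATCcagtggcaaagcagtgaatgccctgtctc
H2-Oa: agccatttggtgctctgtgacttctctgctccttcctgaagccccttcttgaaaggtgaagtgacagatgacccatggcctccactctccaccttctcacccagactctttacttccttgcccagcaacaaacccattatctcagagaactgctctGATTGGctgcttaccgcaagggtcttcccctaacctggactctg
The *H2-Aa* (chr17:34287824-34288023, - strand), *H2-Eb1* (chr17:34305667-34305866, + strand) and *H2-Oa* (chr17:34092179-34092378, + strand) windows hold the letters at -49, at -60 and -35 and at -44 bases from the start. *H2-Oa*, a subunit of a modulator of peptide loading, averaged 25.3 ± 5.51 CPM in RFP- MHCIIlo cells, against 128 ± 3.52 CPM in RFP- MHCIIhi cells. A match says only that these letters are there.

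Regulators of mature mTEC were mostly lower in the MHCIIlo cells: 8 of 12 fell and 3 rose. *Aire* had 16.3, 23.8, 42.6 and 69 CPM in the RFP- MHCIIlo libraries, against 950.1, 1041, 1007 and 916 CPM in the RFP- MHCIIhi libraries (log2 -4.68 ± 0.37 SE, adjusted p = 8.4e-11, edgeR). All 4 RFP- MHCIIlo libraries were far below all 4 RFP- MHCIIhi libraries, although they differed more among themselves, with replicate 1 lowest and replicate 4 highest. *Fezf2*, a zinc-finger factor that drives a further set of tissue antigens, had 127, 171, 174 and 161 CPM in the RFP- MHCIIlo libraries, against 565, 573, 603 and 480.1 CPM in the RFP- MHCIIhi libraries. Its log2 fold change was -1.81 ± 0.10 SE, against -4.68 ± 0.37 SE for *Aire*. *Sirt1*, a deacetylase known as a cofactor of Aire, fell to 33.5 ± 2.75 CPM in RFP- MHCIIlo, against 294 ± 27 CPM in RFP- MHCIIhi. *Irf4* and *Irf8*, interferon regulatory factors, fell by 2.51 and 2.03 on the log2 scale. The Ets factor *Spib* was slightly higher, with a log2 fold change of 0.36.

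Co-stimulation and the pathways that feed it followed. Of 12 genes of co-stimulation and checkpoint ligands 10 fell and 1 rose, with a median of -2.07. *Cd80*, a ligand of CD28, had 9.04, 11.1, 8.36 and 10.6 CPM in the RFP- MHCIIlo libraries, against 61.4, 64.1, 61.9 and 55.8 CPM in the RFP- MHCIIhi libraries. *Cd40*, the receptor through which T cells signal to mTEC, averaged 17.9 ± 8.47 CPM in RFP- MHCIIlo cells, against 166 ± 6.48 CPM in RFP- MHCIIhi cells. *Cd86* and *Tnfsf9* fell by 3.76 and 2.93 on the log2 scale. Among 21 genes of RANK, CD40 and NF-kB signalling 11 fell and 5 rose. The adaptor *Traf6* and the inhibitors *Nfkbia* and *Nfkbie* fell by 1.38, 1.15 and 1.15 on the log2 scale. The lymphotoxin receptor *Ltbr* went the other way, at 36.8 ± 2.24 CPM in RFP- MHCIIlo cells, against 16.6 ± 0.697 CPM in RFP- MHCIIhi cells, as did *Traf5* (log2 fold change 1.79) and the deubiquitinase *Tnfaip3* (1.0).

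Antigen processing moved in both directions. For MHC class I presentation, 3 of 13 genes rose and 4 fell, all by less than 3-fold, and 6 were not called. The proteasome subunits *Psmb10* and *Psme2* fell by 1.48 and 1.48 on the log2 scale, while *Nlrc5*, the activator of class I genes, rose by 0.80. Among lysosomal proteases 7 of 12 fell and 3 rose. *Ctss*, the cathepsin that trims the invariant chain, averaged 32.3 ± 4.41 CPM in RFP- MHCIIlo cells, against 154 ± 11.1 CPM in RFP- MHCIIhi cells, and *Ctsd* averaged 248 ± 17.1 CPM in RFP- MHCIIlo cells, against 83.3 ± 6.18 CPM in RFP- MHCIIhi cells.

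Chemokine ligands were mostly lower, 18 of 26 tested, and 7 were higher. *Ccl25*, the ligand of CCR9 on thymocytes, had 55.8, 69.9, 65.1 and 69.5 CPM in the RFP- MHCIIlo libraries, against 916, 769, 810.0 and 1194 CPM in the RFP- MHCIIhi libraries. *Ccl17*, a ligand of CCR4, averaged 1.01 ± 0.512 CPM in RFP- MHCIIlo cells, against 23.1 ± 2.36 CPM in RFP- MHCIIhi cells, and *Cxcl13*, which draws B cells, averaged 1.9 ± 0.648 CPM in RFP- MHCIIlo cells, against 47.8 ± 5.04 CPM in RFP- MHCIIhi cells. The other group was led by *Ccl11*, the eosinophil chemokine eotaxin. It averaged 131 ± 14.1 CPM in RFP- MHCIIlo cells, against 11.7 ± 1.37 CPM in RFP- MHCIIhi cells. *Ccl9* and *Ccl20*, the ligand of CCR6, rose by 2.05 and 1.97 on the log2 scale. *Ccl21a*, the ligand of CCR7 for which many MHCIIlo cells are known, had 1 read in the RFP- MHCIIlo libraries and 0 in the RFP- MHCIIhi libraries and could not be tested. It has near-identical copies with which it shares reads, so its count is uncertain.

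**Figure D2:**
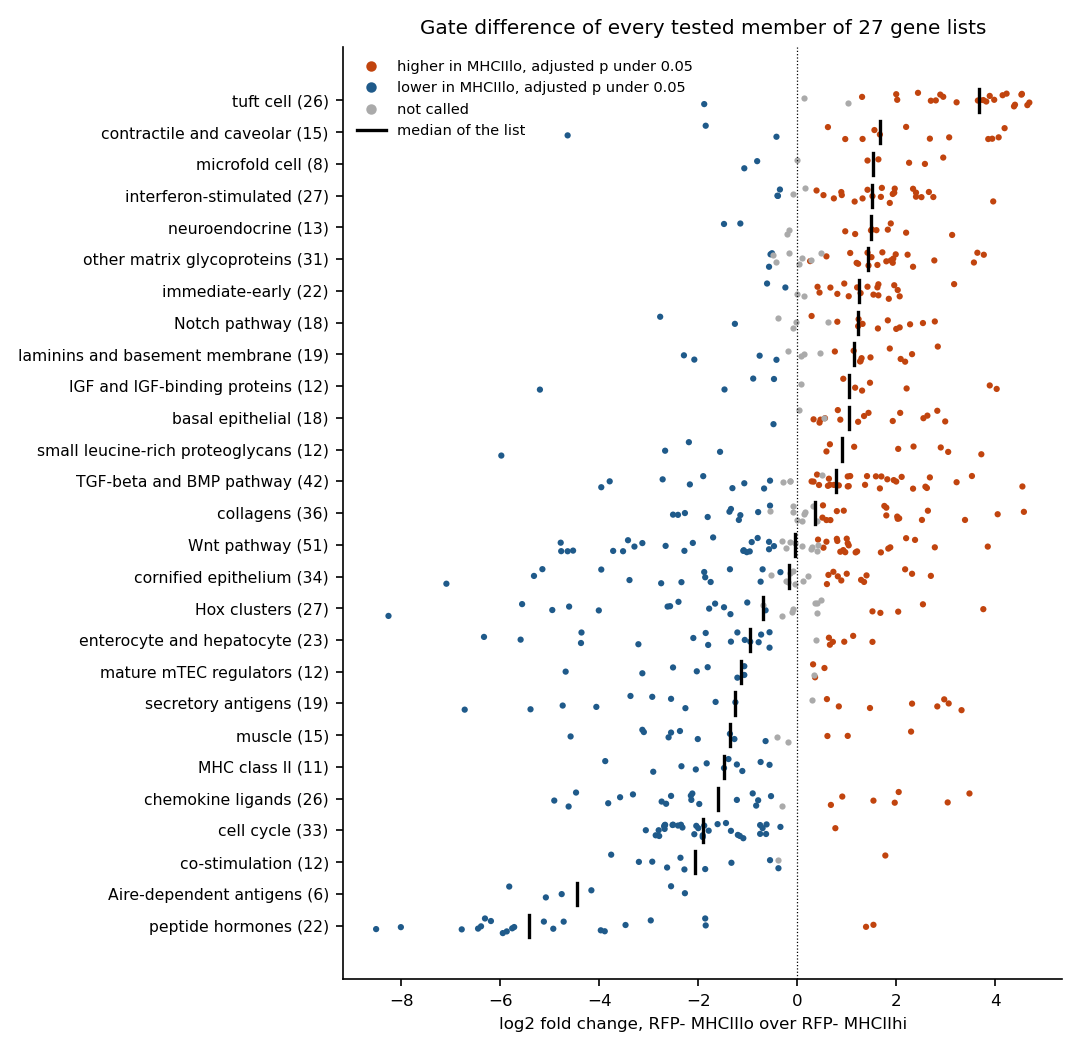
Log2 fold change of RFP- MHCIIlo over RFP- MHCIIhi for every tested member of 27 gene lists, ordered by the median of the list (black bar), with the number tested in brackets. Red and blue points passed the test as higher and lower, and grey points were not called. Tuft cell genes stand highest with a median of 3.67 and peptide hormones lowest with a median of -5.42. The hormone median rests partly on members near 0 in RFP- MHCIIlo, whose direction the filter on low counts largely set. The points of *Nppb*, *Crh*, *Hoxa10* and *Hoxc12*, at 0 reads in RFP- MHCIIlo, are fitted values.

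The 15 largest decreases among named genes at 20 CPM or more in RFP- MHCIIhi with no overlap ran from -6.37 to -7.55 on the log2 scale. These limits leave out genes at lower levels, and 213 called genes in all were lower by over 64-fold. The 15 include genes known from brain (*Rln3*, relaxin-3, and *Gal*, galanin), eye (*Myoc*, myocilin), lactating mammary gland (*Csn1s2a*, a casein), embryonic blood (*Hba-x* and *Hbb-y*, globins), squamous epithelium (*Mt4*, a metallothionein) and ileum (*Fabp6*, a bile acid binding protein). The others were *Ly6g*, a neutrophil antigen, *Dppa3*, of germ cells and early embryos, *Defb19*, a defensin, *Lefty2*, an embryonic inhibitor of Nodal, *Prss29*, a serine protease, *Ceacam15* and *Cytl1*. *Rln3* had 0, 0, 0.0853 and 0.946 CPM in the RFP- MHCIIlo libraries, against 56.6, 45, 50.3 and 56.9 CPM in the RFP- MHCIIhi libraries (log2 -7.55 ± 0.34 SE, adjusted p = 5.6e-15, edgeR). Replicate 4 held nearly all of its 12 reads in RFP- MHCIIlo, and the fitted fold change was -10.36 without it. *Fabp6* had 1.28, 0.933, 0.682 and 1.38 CPM in the RFP- MHCIIlo libraries, against 87, 80.7, 95.7 and 91.7 CPM in the RFP- MHCIIhi libraries (log2 -6.38 ± 0.27 SE). Single libraries also moved *Myoc* (-7.37, and -8.98 without RFP- MHCIIlo replicate 3), *Ceacam15* (-6.72, and -7.42 without RFP- MHCIIlo replicate 2) and *Hbb-y* (-6.37, and -7.02 without RFP- MHCIIlo replicate 4). Globin and casein genes have close relatives that can share their reads.

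Peptide hormones had the lowest median of the lists tested, with 20 of 22 lower and 2 higher. Members near 0 in RFP- MHCIIlo could pass the filter on low counts only through other populations, so it largely set their direction. The count and the median rest partly on such members and are given as description only. *Pth*, which rose, is counted with the parathyroid genes and not on this list. *Nts*, the gut and brain peptide neurotensin, had 0.638, 0.848, 2.39 and 1.2 CPM in the RFP- MHCIIlo libraries, against 92.6, 111, 111 and 101 CPM in the RFP- MHCIIhi libraries. *Gal* averaged 0.384 ± 0.33 CPM in RFP- MHCIIlo cells, against 36.2 ± 2.43 CPM in RFP- MHCIIhi cells, and *Adcyap1*, the neuropeptide PACAP, averaged 0.0854 ± 0.0696 CPM in RFP- MHCIIlo cells, against 8.34 ± 2.0 CPM in RFP- MHCIIhi cells. *Nppb*, a natriuretic peptide, had no read in the RFP- MHCIIlo libraries and 3.44 CPM in RFP- MHCIIhi, at least 51.1-fold lower with a floor of 3 counts over the group. *Crh*, corticotropin-releasing hormone, was at least 35.6-fold lower by the same floor, and with both at these bounds the median of the list was -5.14 rather than -5.42. The members that rose were *Ghrl*, ghrelin, and *Iapp*, islet amyloid peptide. *Iapp* averaged 68.4 ± 0.318 CPM in RFP- MHCIIlo cells, against 23.7 ± 1.98 CPM in RFP- MHCIIhi cells.

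The Aire-dependent antigens that could be tested all fell, 6 of 6, with a median of -4.46. *Mucl2*, a salivary mucin-like gene, averaged 0.379 ± 0.208 CPM in RFP- MHCIIlo cells, against 22.2 ± 4.39 CPM in RFP- MHCIIhi cells, and *S100a8*, a calgranulin, averaged 11.7 ± 2.56 CPM in RFP- MHCIIlo cells, against 209 ± 19.7 CPM in RFP- MHCIIhi cells. *Tff3*, a trefoil factor of goblet cells, fell by 2.55 on the log2 scale. *Ins2*, insulin, had 0.213, 0, 0.0853 and 0.516 CPM in the RFP- MHCIIlo libraries, against 4.73, 5.03, 7.67 and 5.68 CPM in the RFP- MHCIIhi libraries, and its fold change was -4.76, or -5.83 without RFP- MHCIIlo replicate 4. *Mup1* and *Rbp3* did not pass the filter. Members near 0 in RFP- MHCIIlo, such as *Ins2* and *Mucl2*, could pass it only through other populations, so it largely set their direction. Of 3 Aire-independent antigens, *Gad1*, the brain enzyme that makes GABA, fell by 3.59 on the log2 scale. *Crp*, the acute-phase protein, rose by 1.64, and *Col2a1*, cartilage collagen, had a log2 fold change of -0.09 that was not called.

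Other tissue groups split. Among liver and gut genes 16 of 23 fell and 6 rose. *Apob*, the lipoprotein scaffold, averaged 9.98 ± 3.7 CPM in RFP- MHCIIlo cells, against 93.2 ± 12.8 CPM in RFP- MHCIIhi cells. *Fga* and *Fgb*, fibrinogen chains, fell by 5.59 and 4.37 on the log2 scale. *Muc13*, a mucin of the gut surface, rose by 1.52. Muscle genes fell in 10 of 15 and rose in 3, and *Myh3*, embryonic myosin, averaged 1.78 ± 0.849 CPM in RFP- MHCIIlo cells, against 43.7 ± 1.29 CPM in RFP- MHCIIhi cells. Among secretory antigens of milk, saliva and airway 10 of 19 fell and 8 rose. The caseins *Csn1s2a* and *Csn1s1* fell by 6.72 and 4.74. The airway mucin *Muc5b* and lactoferrin, *Ltf*, went up, and *Muc5b* averaged 86.8 ± 24.4 CPM in RFP- MHCIIlo cells, against 11 ± 2.6 CPM in RFP- MHCIIhi cells.

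Genes of cornified epithelium, the outer layers of skin, were divided much as genes at large were: 12 of 34 were higher, 14 lower and 8 not called. The higher ones were led by *Krt6a* (log2 fold change 2.7), *Calml3* (2.32) and *Spink5*, a protease inhibitor of skin, which averaged 202 ± 39 CPM in RFP- MHCIIlo cells, against 44.5 ± 11 CPM in RFP- MHCIIhi cells. *Krt10*, an early differentiation keratin, averaged 26.4 ± 7.59 CPM in RFP- MHCIIlo cells, against 10.7 ± 1.46 CPM in RFP- MHCIIhi cells. The lower ones included *Klk5*, a kallikrein of the shedding layer, with -5.32, and *Hal*, histidase, which averaged 6.27 ± 0.455 CPM in RFP- MHCIIlo cells, against 97.7 ± 6.29 CPM in RFP- MHCIIhi cells.

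Tuft cell genes were mostly higher: 23 of 26 rose, 1 fell, and the median was 3.67. *Trpm5*, the cation channel of taste transduction, had 394, 309.8, 259 and 231 CPM in the RFP- MHCIIlo libraries, against 17, 12.7, 13.2 and 14.2 CPM in the RFP- MHCIIhi libraries (log2 4.38 ± 0.16 SE, adjusted p = 1.6e-16, edgeR). *Gnat3*, the taste G protein gustducin, had 249, 189, 154 and 123 CPM in the RFP- MHCIIlo libraries, against 8.86, 6.07, 5.83 and 7.24 CPM in the RFP- MHCIIhi libraries. *Sh2d6*, an SH2 adaptor, averaged 196 ± 42.7 CPM in RFP- MHCIIlo cells, against 7.51 ± 1.13 CPM in RFP- MHCIIhi cells, and *Alox5ap*, which feeds the leukotriene pathway, averaged 128 ± 25.7 CPM in RFP- MHCIIlo cells, against 5.91 ± 1.96 CPM in RFP- MHCIIhi cells. *Rgs13* and *Rgs21*, regulators of G protein signalling, rose by 4.53 and 4.54. *Dclk1*, the usual tuft marker, averaged 467 ± 104 CPM in RFP- MHCIIlo cells, against 36.1 ± 3.07 CPM in RFP- MHCIIhi cells, and *Pou2f3*, the transcription factor that specifies tuft cells, averaged 83.7 ± 15.3 CPM in RFP- MHCIIlo cells, against 15 ± 1.5 CPM in RFP- MHCIIhi cells. The list summed to 2079 to 3254 CPM in the RFP- MHCIIlo libraries, against 233 to 267 CPM in the RFP- MHCIIhi libraries, with no overlap. Of the 15 largest increases named at 20 CPM or more in RFP- MHCIIlo with no overlap, *Sh2d6*, *Gnat3*, *Rgs21*, *Rgs13*, *Alox5ap* and *Trpm5* are members of this list. *Sh2d7* (log2 fold change 4.59), *Ly6g6f* (4.79), *Sult5a1* (4.58), *Sobp* (4.62) and *Fat3* (4.53), an atypical cadherin, belong to no list used here.

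Lists of other specialised epithelia were smaller. Microfold cell genes, of the cells that sample antigen over gut lymphoid tissue, rose in 5 of 8 and fell in 2. *Gp2*, the glycoprotein by which they bind bacteria, had 619, 631, 596 and 609 CPM in the RFP- MHCIIlo libraries, against 80.9, 80.0, 63.7 and 91.8 CPM in the RFP- MHCIIhi libraries. Neuroendocrine genes rose in 9 of 13 and fell in 2. Their summed level overlapped, at 393 to 661 CPM in the RFP- MHCIIlo libraries, against 386 to 443 CPM in the RFP- MHCIIhi libraries. *Chga*, the granule protein chromogranin A, had 288, 195, 128 and 94.3 CPM in the RFP- MHCIIlo libraries, against 19.3, 18.1, 22.2 and 20.8 CPM in the RFP- MHCIIhi libraries. RFP- MHCIIlo replicate 1 was highest and replicate 4 lowest for *Chga*, yet all 4 stood above every RFP- MHCIIhi library. The granule proteins *Chgb* and *Scg2* rose by 2.2 and 1.89. Ciliated cell genes were mixed, with 7 of 22 higher, 6 lower and 9 not called. *Dnah11*, a dynein arm, averaged 51.3 ± 7.32 CPM in RFP- MHCIIlo cells, against 8.86 ± 0.906 CPM in RFP- MHCIIhi cells, but *Mcidas*, the regulator that starts multiciliogenesis, averaged 2.1 ± 0.83 CPM in RFP- MHCIIlo cells, against 17.2 ± 0.966 CPM in RFP- MHCIIhi cells. *Foxj1* was at 33 ± 4.11 CPM in RFP- MHCIIlo cells, against 29.4 ± 3.11 CPM in RFP- MHCIIhi cells and was not called (log2 0.17 ± 0.10 SE), except without RFP- MHCIIlo replicate 3 (0.25). Among ionocyte genes 5 of 10 rose and 3 fell, and *Cftr*, the chloride channel of these cells, rose by 0.83.

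*Pth*, parathyroid hormone, had the largest increase of the genes named at 20 CPM or more. It had 660.2, 480.0, 381 and 187 CPM in the RFP- MHCIIlo libraries, against 13.5, 13.6, 13.8 and 15.5 CPM in the RFP- MHCIIhi libraries (log2 4.92 ± 0.64 SE, adjusted p = 3.6e-07, edgeR). The groups were far apart, and the RFP- MHCIIlo libraries spread widely, with replicate 1 highest and replicate 4 lowest, as they were for *Trpm5*, *Gnat3* and *Chga*. *Casr*, the calcium receptor of the parathyroid, averaged 31.4 ± 3.83 CPM in RFP- MHCIIlo cells, against 19.7 ± 1.58 CPM in RFP- MHCIIhi cells, and *Gcm2*, the factor that makes the gland, was at 1.8 ± 1.06 CPM in RFP- MHCIIlo cells, against 1.48 ± 0.237 CPM in RFP- MHCIIhi cells and was not called. The 3 tested parathyroid genes summed to 218 to 700.1 CPM in RFP- MHCIIlo cells, against 33.3 to 37.5 CPM in RFP- MHCIIhi cells, and the part of parathyroid cells in the *Pth* result was not tested.

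**Figure D3:**
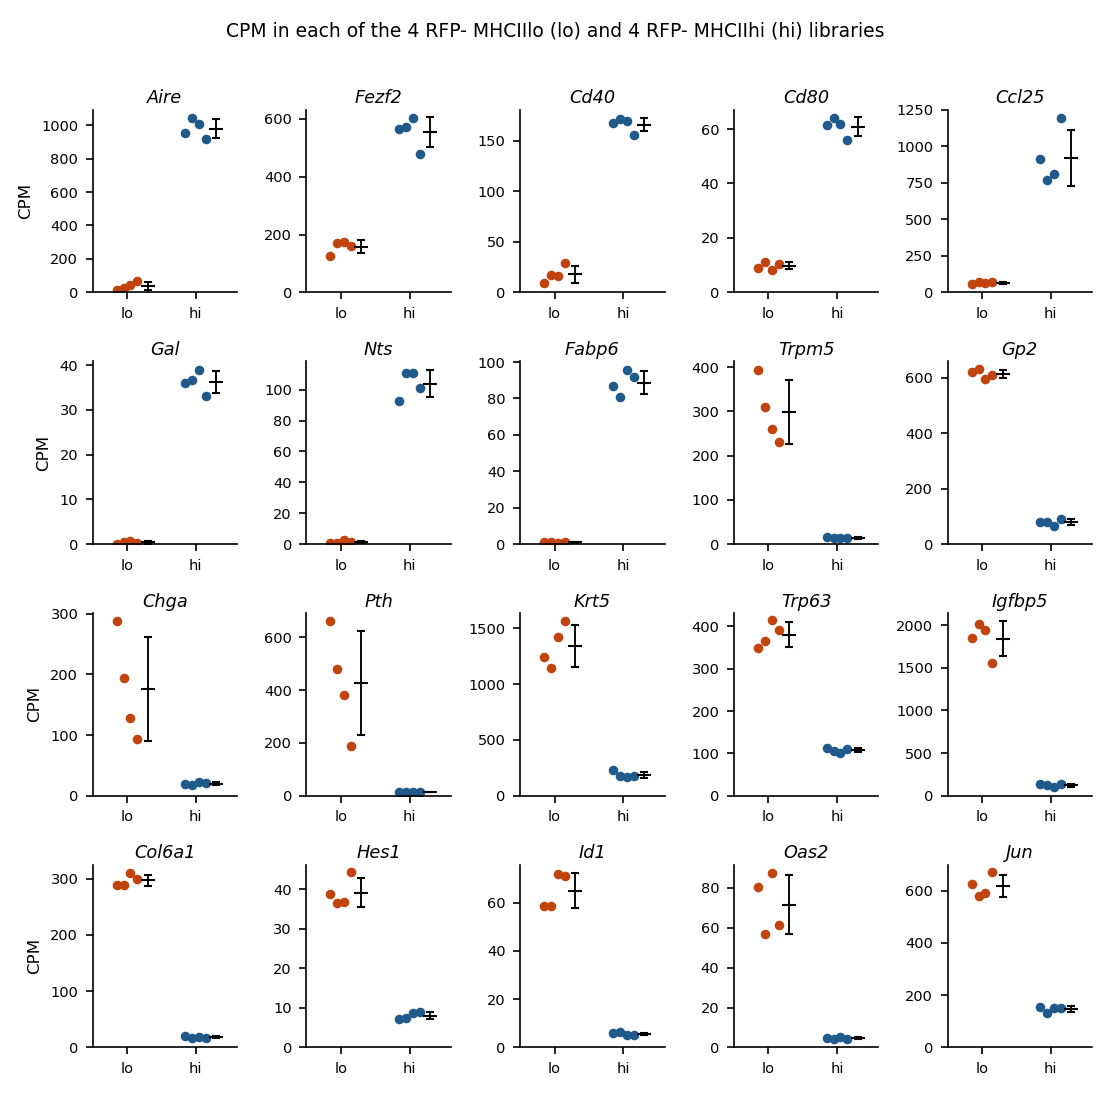
CPM of 20 genes in each of the 4 RFP- MHCIIlo libraries (lo, red) and the 4 RFP- MHCIIhi libraries (hi, blue), with the mean and SD beside the points. The 2 groups do not overlap for any of the 20, as they do not for 65.3% of all tested genes. The RFP- MHCIIlo libraries spread widely for *Aire*, *Nts*, *Pth* and *Chga* but closely for *Gp2* and *Col6a1*.

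Basal epithelial genes, of the layer that holds stem and progenitor cells, rose in 15 of 18 and fell in 1. *Krt5*, a basal keratin, had 1239.6, 1140.0, 1422 and 1567 CPM in the RFP- MHCIIlo libraries, against 229.5, 174, 169.8 and 181 CPM in the RFP- MHCIIhi libraries. *Krt14*, its partner, averaged 437 ± 64.4 CPM in RFP- MHCIIlo cells, against 103 ± 14.7 CPM in RFP- MHCIIhi cells. *Trp63*, the basal transcription factor p63, had 348, 366, 416 and 392 CPM in the RFP- MHCIIlo libraries, against 112, 106, 101 and 110.3 CPM in the RFP- MHCIIhi libraries. *Bcam*, a laminin receptor, *Ly6a*, the antigen Sca-1, and *Pdpn*, podoplanin, rose by 2.99, 2.63 and 2.55. The member that fell was *Col17a1*, a collagen of hemidesmosomes (-0.48), and the count that fell was 2 without RFP- MHCIIlo replicate 1.

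Matrix lists held more higher than lower genes. Among 36 collagens 17 rose, 10 fell and 9 were not called. *Col6a1* and *Col6a2* encode chains of the beaded-filament collagen VI. *Col6a2* had 307, 311, 331 and 311 CPM in the RFP- MHCIIlo libraries, against 13.9, 11.6, 13.5 and 13.4 CPM in the RFP- MHCIIhi libraries (log2 4.58 ± 0.12 SE, adjusted p = 3.8e-18, edgeR), and *Col6a1* averaged 297 ± 10.5 CPM in RFP- MHCIIlo cells, against 17.8 ± 1.99 CPM in RFP- MHCIIhi cells. *Col6a3*, the third chain, is also on the mesenchymal marker list and was lower, with 13.8 ± 4.14 CPM in RFP- MHCIIlo cells, against 20.1 ± 1.06 CPM in RFP- MHCIIhi cells (log2 -0.55 ± 0.22 SE). *Col4a4*, of basement membrane, and *Col3a1*, of fibrils, rose by 3.39 and 2.64, while the cartilage collagens *Col9a1* and *Col10a1* fell by 2.41 and 1.81. The call on *Col6a3* was lost without RFP- MHCIIlo replicate 2 (-0.38) or 4 (-0.54), or without RFP- MHCIIhi replicate 1 (-0.55), 2 (-0.52) or 3 (-0.54).

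Small leucine-rich proteoglycans, which coat collagen fibrils and bind growth factors, rose in 8 of 12 and fell in 4. *Fmod*, fibromodulin, had 54.5, 63.5, 60.3 and 77.8 CPM in the RFP- MHCIIlo libraries, against 5.24, 4.32, 3.99 and 5.74 CPM in the RFP- MHCIIhi libraries. *Prelp* averaged 137 ± 24.7 CPM in RFP- MHCIIlo cells, against 16.4 ± 2.89 CPM in RFP- MHCIIhi cells, and *Dcn*, decorin, averaged 376 ± 126 CPM in RFP- MHCIIlo cells, against 50.5 ± 2.32 CPM in RFP- MHCIIhi cells. *Aspn*, *Epyc* and *Optc* fell by 2.67, 2.19 and 1.56. Laminins and basement membrane genes rose in 11 of 19 and fell in 4. *Lamb1* averaged 223 ± 10.4 CPM in RFP- MHCIIlo cells, against 31.2 ± 3.34 CPM in RFP- MHCIIhi cells, and *Agrn*, agrin, averaged 212 ± 10.8 CPM in RFP- MHCIIlo cells, against 42.3 ± 4.35 CPM in RFP- MHCIIhi cells. *Lama1*, the chain of embryonic basement membranes, fell by 2.08. Other matrix glycoproteins rose in 21 of 31 and fell in 3. *Mgp*, an inhibitor of calcification, averaged 212 ± 56.4 CPM in RFP- MHCIIlo cells, against 17 ± 0.863 CPM in RFP- MHCIIhi cells, and *Efemp1*, a fibulin, averaged 27.8 ± 5.47 CPM in RFP- MHCIIlo cells, against 2.32 ± 0.377 CPM in RFP- MHCIIhi cells. Fibronectin, *Fn1*, was lower at 163 ± 14.4 CPM in RFP- MHCIIlo cells, against 237 ± 9.9 CPM in RFP- MHCIIhi cells.

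Matrix proteases and their inhibitors rose in 12 of 24 and fell in 7. The protease *Mmp11* and the inhibitor *Timp2* rose by 2.81 and 2.35, while *Mmp12* and *Mmp13* fell by 4.11 and 5.02. Contractile and caveolar genes rose in 12 of 15 and fell in 3. *Tagln*, an actin-binding protein of smooth muscle, had 77.9, 101, 96.6 and 90.7 CPM in the RFP- MHCIIlo libraries, against 5.57, 4.9, 5.53 and 4.02 CPM in the RFP- MHCIIhi libraries. *Myl9*, myosin light chain, and *Cav1*, the caveolar coat protein, rose by 4.07 and 3.86. *Cnn1*, calponin, fell by 4.64, and *Myh11*, smooth-muscle myosin, by 0.42.

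*Igfbp5*, which binds insulin-like growth factors, had 1845, 2016, 1948 and 1550.4 CPM in the RFP- MHCIIlo libraries, against 142, 124, 98.9 and 132 CPM in the RFP- MHCIIhi libraries. *Igfbp4* averaged 235 ± 34.4 CPM in RFP- MHCIIlo cells, against 14.3 ± 1.77 CPM in RFP- MHCIIhi cells. Of the 12 genes of this family 7 rose and 4 fell, and the growth factors *Igf1* and *Igf2* were among those that fell, with log2 fold changes of -1.47 and -0.47.

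Signalling pathways differed in how their members moved. Notch genes rose in 12 of 18 and fell in 2, with a median of 1.23. Among receptors *Notch3* averaged 34.7 ± 1.16 CPM in RFP- MHCIIlo cells, against 5.93 ± 0.673 CPM in RFP- MHCIIhi cells, and among ligands *Jag1* averaged 71.8 ± 5.34 CPM in RFP- MHCIIlo cells, against 17 ± 2.33 CPM in RFP- MHCIIhi cells. The targets *Hes1* and *Hey2* rose by 2.28 and 2.78, and *Hes1* had 38.7, 36.6, 36.7 and 44.4 CPM in the RFP- MHCIIlo libraries, against 7.1, 7.42, 8.67 and 9.02 CPM in the RFP- MHCIIhi libraries. *Dll4*, the ligand for which the thymic cortex is known, fell by 2.77, and *Mfng*, which modifies the receptors, by 1.26.

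TGF-beta and BMP genes rose in 29 of 42 and fell in 9, with a median of 0.79. *Fst*, follistatin, which traps activins, had 37.8, 49, 40.8 and 58.9 CPM in the RFP- MHCIIlo libraries, against 1.95, 2.26, 1.92 and 1.84 CPM in the RFP- MHCIIhi libraries. *Id1*, a direct target of BMP signals, had 58.5, 58.7, 71.8 and 71 CPM in the RFP- MHCIIlo libraries, against 5.89, 6.26, 5.22 and 5.0 CPM in the RFP- MHCIIhi libraries. The ligand *Bmp4* rose by 2.68 and the latent-complex protein *Ltbp4* by 3.22. The BMP antagonist *Grem1* fell by 2.72, and the ligands *Inhbb* and *Bmp3* by 2.17 and 1.9.

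Wnt genes split about as all genes did, 20 higher and 22 lower of 51. The receptor *Fzd2* averaged 45.3 ± 2.08 CPM in RFP- MHCIIlo cells, against 3.13 ± 0.418 CPM in RFP- MHCIIhi cells, and *Porcn*, the acyltransferase that readies Wnt proteins for secretion, rose by 2.38. *Rspo3*, an enhancer of Wnt signals, averaged 0.228 ± 0.184 CPM in RFP- MHCIIlo cells, against 6.41 ± 0.771 CPM in RFP- MHCIIhi cells. *Tcf7*, a nuclear effector that thymocytes also express, fell by 3.72. EGF, FGF, PDGF and KIT genes also split, with 12 higher and 12 lower of 30. *Fgfr2*, the receptor for the FGFs on which thymic epithelium depends, averaged 231 ± 13 CPM in RFP- MHCIIlo cells, against 32.6 ± 4.56 CPM in RFP- MHCIIhi cells, and *Egfr* averaged 237 ± 17.5 CPM in RFP- MHCIIlo cells, against 60.3 ± 3.7 CPM in RFP- MHCIIhi cells. The EGFR ligands *Epgn*, *Ereg* and *Areg* fell by 3.48, 2.71 and 2.28. *Gas1*, a co-receptor of Hedgehog, had the next largest increase after *Pth* among the genes named at 20 CPM or more, with 151, 148, 144 and 171 CPM in the RFP- MHCIIlo libraries, against 5.89, 4.26, 4.6 and 6.09 CPM in the RFP- MHCIIhi libraries (log2 4.86 ± 0.17 SE, adjusted p = 9.3e-17, edgeR).

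Interferon-stimulated genes were higher in 22 of 27 and lower in 3, with a median of 1.52. *Oas2*, an enzyme that senses double-stranded RNA, had 80.3, 57.1, 87.5 and 61.4 CPM in the RFP- MHCIIlo libraries, against 4.59, 4.13, 5.45 and 4.25 CPM in the RFP- MHCIIhi libraries. *Irf7*, the factor that amplifies the type I response, averaged 135 ± 3.85 CPM in RFP- MHCIIlo cells, against 20.1 ± 2.33 CPM in RFP- MHCIIhi cells, and *Ifit3* averaged 78 ± 8.88 CPM in RFP- MHCIIlo cells, against 12.3 ± 0.799 CPM in RFP- MHCIIhi cells. *Usp18* and *Oasl1*, of the same response, were slightly lower, with -0.40 and -0.39. Genes of this response are known for an element in which the letters GAAA recur, and 4 promoters are shown, 3 of genes that rose and that of *Rsad2* (-0.08), which was not called. The letters GAAA, followed after any 2 bases by GAAA again, were found on either strand of the same windows in 13 of the 21 list genes with an entry, against 3.99% of the 27025 genes of the table. *Oas2*, *Mx1*, *Mx2*, *Usp18* and *Iigp1* were among the members with no entry. The stretches are the 200 bases before the start, from RefSeq (GRCm38.p6), with the letters or their reverse complement in capitals, and matches may overlap.
Isg15: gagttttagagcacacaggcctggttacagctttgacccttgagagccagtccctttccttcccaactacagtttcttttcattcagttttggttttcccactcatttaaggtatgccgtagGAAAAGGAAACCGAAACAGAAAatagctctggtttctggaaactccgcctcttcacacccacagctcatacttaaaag
Oas3: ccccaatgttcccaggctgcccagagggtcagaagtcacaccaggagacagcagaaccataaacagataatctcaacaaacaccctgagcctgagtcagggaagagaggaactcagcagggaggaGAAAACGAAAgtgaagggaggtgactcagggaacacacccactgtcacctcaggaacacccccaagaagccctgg
Ifit3: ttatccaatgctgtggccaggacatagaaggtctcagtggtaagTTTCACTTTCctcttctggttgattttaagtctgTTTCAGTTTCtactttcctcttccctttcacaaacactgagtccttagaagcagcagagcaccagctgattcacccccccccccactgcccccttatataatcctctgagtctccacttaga
Rsad2: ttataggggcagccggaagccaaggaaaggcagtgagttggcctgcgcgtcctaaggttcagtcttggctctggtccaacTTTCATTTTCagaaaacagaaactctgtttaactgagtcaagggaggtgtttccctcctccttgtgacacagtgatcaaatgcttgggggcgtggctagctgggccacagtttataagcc
The windows are *Isg15* (chr4:156200819-156201018, - strand), *Oas3* (chr5:120777660-120777859, - strand), *Ifit3* (chr19:34583329-34583528, + strand) and *Rsad2* (chr12:26456453-26456652, - strand). *Isg15* holds 3 overlapping matches that begin at -78, -72 and -66 from the start, *Oas3* 1 at -75, *Ifit3* 2 at -156 and -122, and *Rsad2* 1 at -120. *Isg15*, a ubiquitin-like modifier, averaged 71.9 ± 10.9 CPM in RFP- MHCIIlo cells, against 13.6 ± 1.06 CPM in RFP- MHCIIhi cells, and *Oas3* averaged 89 ± 10.5 CPM in RFP- MHCIIlo cells, against 27.6 ± 2.39 CPM in RFP- MHCIIhi cells. The letters thus stand before genes that rose and before a gene that was not called.

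Immediate-early genes, which respond within minutes to growth factors and to tissue handling, were higher in 18 of 22 and lower in 2. The lower count was 1 without any of RFP- MHCIIlo replicates 1, 3 and 4 or RFP- MHCIIhi replicates 1, 2 and 3. *Jun* had 624, 579.6, 591 and 673 CPM in the RFP- MHCIIlo libraries, against 153, 131, 152 and 151 CPM in the RFP- MHCIIhi libraries. *Fos* averaged 303 ± 41.5 CPM in RFP- MHCIIlo cells, against 78.1 ± 1.93 CPM in RFP- MHCIIhi cells, and *Egr3* averaged 20.6 ± 5.15 CPM in RFP- MHCIIlo cells, against 2.2 ± 0.835 CPM in RFP- MHCIIhi cells. *Myc* was lower at 63.5 ± 9.25 CPM in RFP- MHCIIlo cells, against 97.3 ± 4.35 CPM in RFP- MHCIIhi cells. Cell cycle genes fell in 32 of 33 and rose in 1, with a median of -1.91. *Mki67*, the proliferation marker, had 72.4, 88.9, 158 and 159.6 CPM in the RFP- MHCIIlo libraries, against 464, 497, 498 and 459 CPM in the RFP- MHCIIhi libraries. *Cdk1* and *Bub1*, of mitosis, fell by 2.8 and 3.06. The member that rose was *Ccnd1*, cyclin D1 (0.77), which acts at entry into the cycle.

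Among factors that pattern the thymus 8 of 14 were higher and 3 lower. Leaving out replicate 3 or 4 of either population brought the lower count to 1. *Foxn1*, the master regulator of thymic epithelium, had 98.5, 107, 94.1 and 116 CPM in the RFP- MHCIIlo libraries, against 286, 266, 276 and 266 CPM in the RFP- MHCIIhi libraries. *Pax1* was at 176 ± 29.9 CPM in RFP- MHCIIlo cells, against 183 ± 33.1 CPM in RFP- MHCIIhi cells and was not called, with a log2 fold change of -0.05. *Hoxa3*, *Eya1*, *Meis1* and *Isl1* rose by 2.42, 2.3, 1.62 and 1.48. Among the Hox genes that passed the filter 14 of 27 were lower and 5 higher. The ones that rose were all of the *Hoxa* cluster. *Hoxa5* averaged 5.21 ± 2.55 CPM in RFP- MHCIIlo cells, against 0.382 ± 0.104 CPM in RFP- MHCIIhi cells and *Hoxa2* 12.9 ± 1.22 CPM in RFP- MHCIIlo cells, against 3.16 ± 0.455 CPM in RFP- MHCIIhi cells. *Hoxb13* and *Hoxb9*, of the posterior end, fell by 5.56 and 4.01. Most Hox genes were low, and 11 of the 38 listed did not pass the filter. Those near 0 in 1 population, such as *Hoxa10* and *Hoxc12* at 0 reads in RFP- MHCIIlo, could pass only through other populations. The filter thus largely set their direction, and both counts were smaller with a stricter filter. No direction of the clusters as a whole is read from these counts.

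Regulators of other lineages rose in 20 of 47 and fell in 16. Besides *Trp63* and *Pou2f3*, *Snai2*, a mesenchymal and basal factor, averaged 76.1 ± 7.54 CPM in RFP- MHCIIlo cells, against 13.7 ± 1.6 CPM in RFP- MHCIIhi cells. *Wt1*, a factor of mesothelium, rose by 3.16, and *Gata6* by 2.95. *Cdx1*, an intestinal factor, averaged 35 ± 8.18 CPM in RFP- MHCIIlo cells, against 189 ± 7.58 CPM in RFP- MHCIIhi cells, and *Insm1*, an endocrine factor, averaged 10.4 ± 4.41 CPM in RFP- MHCIIlo cells, against 73.8 ± 14.3 CPM in RFP- MHCIIhi cells.

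The labelled cell type and other cells were checked by marker lists. Of 6 epithelial markers 3 were higher and 1 lower, and *Epcam* was at 467 ± 33.4 CPM in RFP- MHCIIlo cells, against 343 ± 16.7 CPM in RFP- MHCIIhi cells. The lower one, *Cldn7* (-0.19), lost its call without any of RFP- MHCIIlo replicates 1, 2 and 3 or RFP- MHCIIhi replicates 2, 3 and 4, and also with no filter (-0.22), with limma-voom (-0.19) and without mitochondrial and ribosomal RNA (-0.14). Cortical thymic epithelial markers were lower in 6 of 7, with 312 to 463 summed CPM in RFP- MHCIIlo cells, against 1479.8 to 2210.4 in RFP- MHCIIhi cells. Its defining gene *Psmb11*, the thymoproteasome subunit, was at 18.4 ± 5.32 CPM in RFP- MHCIIlo cells, against 194 ± 59.8 CPM in RFP- MHCIIhi cells, and *Tbata*, a gene of the thymic cortex, was at 82.2 ± 11.7 CPM in RFP- MHCIIlo cells, against 1034 ± 145 CPM in RFP- MHCIIhi cells. The sort used no marker of the cortex, and *Dll4*, *Ccl25* and *Foxn1*, which cortical cells also express, fell with it. What part cortical cells had in those results was not tested.

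Blood cell markers were lower in RFP- MHCIIlo too. Thymocyte markers fell in 14 of 15, with 37.5 to 74 summed CPM in RFP- MHCIIlo cells, against 383 to 882 in RFP- MHCIIhi cells. *Cd8a* averaged 3.33 ± 0.975 CPM in RFP- MHCIIlo cells, against 58.6 ± 25.3 CPM in RFP- MHCIIhi cells. Myeloid and dendritic markers fell in 13 of 14, with 133 to 169 summed CPM in RFP- MHCIIlo cells, against 497 to 575 in RFP- MHCIIhi cells. *Adgre1*, the macrophage antigen F4/80, averaged 0.673 ± 0.426 CPM in RFP- MHCIIlo cells, against 14 ± 1.2 CPM in RFP- MHCIIhi cells. B cell markers fell in 6 of 8, with 156 to 214 summed CPM in RFP- MHCIIlo cells, against 233 to 267 in RFP- MHCIIhi cells. Their immunoglobulin light chain *Igkc* was at 98.8 ± 20.7 CPM in RFP- MHCIIlo cells, against 46.6 ± 21.1 CPM in RFP- MHCIIhi cells and was not called (log2 1.08 ± 0.52 SE), but without RFP- MHCIIhi replicate 4 it was called as higher in RFP- MHCIIlo (1.40). No tested member of these lists was at 0 reads in either population. MHC class II, co-stimulation and chemokine genes are also expressed by such cells, and their part in those decreases was not tested.

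Stromal markers gave another picture. All 6 tested markers of mesothelium, the lining of the chest cavity, were higher, with 434 to 645 summed CPM in RFP- MHCIIlo cells, against 81.9 to 95.3 in RFP- MHCIIhi cells. *Msln*, mesothelin, averaged 352 ± 21.3 CPM in RFP- MHCIIlo cells, against 55.2 ± 4.66 CPM in RFP- MHCIIhi cells, and *Upk3b* averaged 62.8 ± 42.5 CPM in RFP- MHCIIlo cells, against 5.91 ± 0.659 CPM in RFP- MHCIIhi cells. Mesenchymal markers rose in 4 of 10 and fell in 5, or 3 without RFP- MHCIIlo replicate 4, with 96 to 148 summed CPM in RFP- MHCIIlo cells, against 181 to 242 in RFP- MHCIIhi cells. The fibroblast receptor *Pdgfra* was at 5.69 ± 2.08 CPM in RFP- MHCIIlo cells, against 2.14 ± 0.34 CPM in RFP- MHCIIhi cells, and *Pdgfrb* was at 7.19 ± 1.7 CPM in RFP- MHCIIlo cells, against 24.3 ± 1.5 CPM in RFP- MHCIIhi cells. Endothelial markers rose in 5 of 10 and fell in 2, with 74.5 to 109.9 summed CPM in RFP- MHCIIlo cells, against 59.1 to 64.9 in RFP- MHCIIhi cells, and *Kdr*, a VEGF receptor, rose by 2.61. Pericyte and smooth muscle markers rose in 3 and fell in 3 of 7, with 524 to 618 summed CPM in RFP- MHCIIlo cells, against 423 to 457 in RFP- MHCIIhi cells. Erythroid markers, of blood rather than stroma, fell in 3 of 4. They were low, with only 4.47 to 8.29 summed CPM in RFP- MHCIIlo cells, against 13 to 13.2 in RFP- MHCIIhi cells. Schwann cell markers fell in 3 of 4, with 4.78 to 5.42 summed CPM in RFP- MHCIIlo cells, against 15.6 to 17.6 in RFP- MHCIIhi cells. The part of these cells in the matrix, contractile and signalling results was not tested. The mitochondrially encoded messenger RNAs that passed the filter, 7 of 13, were all higher, by 0.41 to 0.93 on the log2 scale, and their part was not tested either.

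**Figure D4:**
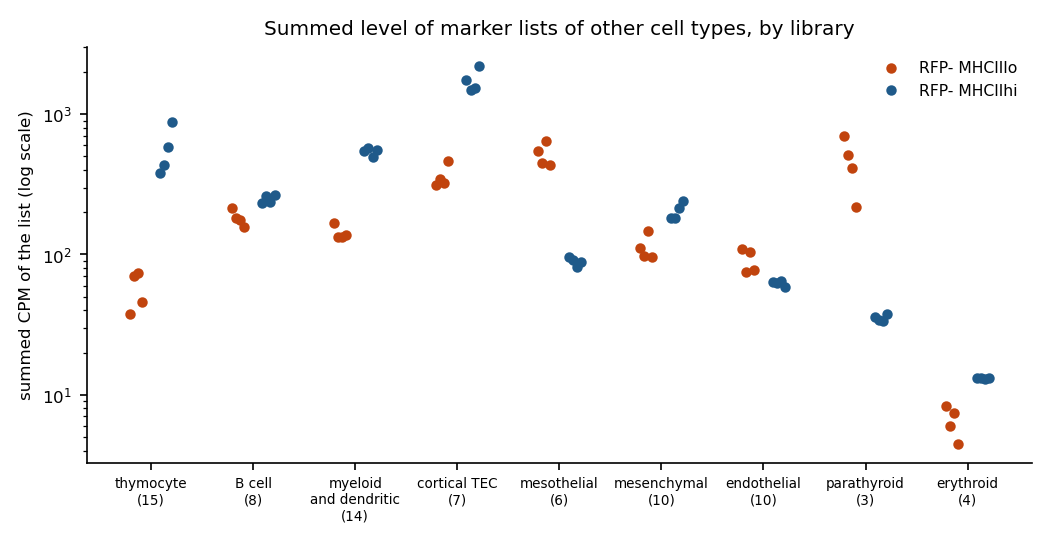
Summed CPM (log axis) of marker lists of other cell types in each RFP- MHCIIlo (red) and RFP- MHCIIhi (blue) library, with the number of tested genes in brackets. Thymocyte, myeloid and cortical lists sum lower in every RFP- MHCIIlo library, mesothelial and parathyroid lists higher.

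The same gate difference was then set against that of the labelled cells, RFP+ MHCIIlo over RFP+ MHCIIhi, by the test of the difference in the same fit. The 2 contrasts share no library. Whether the RFP+ and RFP- cells were sorted from the same pools of thymi was not established, so the contrasts may share mice. RFP+ MHCIIlo was the weakest group, with 7.93 to 12.93 M counts from 19400 to 20500 sorted cells. Its libraries agreed least, with r from 0.9495 to 0.9674, against 0.9738 to 0.9809 in RFP- MHCIIlo, and its replicate 4 stood apart. The test called 6693 genes (34.1% of those tested), 3255 of them with a more positive and 3438 with a more negative value among RFP- cells. Of the genes named at 20 CPM or more with no overlap, the 10 largest increases all passed with a larger fold change among RFP- cells. Of the 10 largest decreases 9 passed with a more negative one, and *Myoc* did not pass (difference -0.93 ± 1.13 SE). The calls on the differences of *Ceacam15* and *Cytl1* were not stable. Both were lost with limma-voom (-1.49 and -1.37), the first was lost without RFP- MHCIIlo replicate 1 (-1.41), 3 (-1.32) or 4 (-1.51), and both were lost without RFP+ MHCIIlo replicate 2 (-1.35 and -1.37) or 3 (-1.29 and -1.44). These genes were chosen for their size among RFP- cells, so the direction of their differences is partly set by the choice. *Pth* had a log2 fold change of 4.92 among RFP- cells and -0.75 among RFP+ cells (difference 5.67 ± 0.91 SE). *Gas1* and *Col6a2* had 4.86 and 4.58 among RFP- cells, against 1.46 and 1.23 among RFP+ cells. For the tuft genes *Gnat3* and *Sh2d6* the gap was smaller, with differences of 1.68 and 1.48.

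Genes named for their role showed differences of the same kind. *Krt5* and *Trp63* had 2.83 and 1.83 among RFP- cells, against 0.81 and -0.04 among RFP+ cells. *Dcn*, *Prelp* and *Fmod* had 2.9, 3.05 and 3.72 among RFP- cells, against -0.53, -0.60 and -0.09 among RFP+ cells. *Tff3* had -2.55 among RFP- cells and 0.35 among RFP+ cells, and *Foxj1* 0.17 and 1.28. The differences for all 7 were called. *Aire* had -4.68 among RFP- cells and -3.53 among RFP+ cells, and its difference of -1.16 was not called (adjusted p = 0.054, edgeR). The difference passed without replicate 4 of RFP- MHCIIlo (-1.61) or replicate 1 of RFP+ MHCIIlo (-1.46). It also passed with median-of-ratios (-1.17) or upper-quartile scaling (-1.24), with the other filters, with limma-voom (-1.12) and with the replicate block (-1.17). By lists, the difference was called as more positive among RFP- cells for 26 of 27 interferon-stimulated genes, 14 of 15 contractile and caveolar genes and 17 of 26 tuft cell genes. It was called as more negative for 24 of 34 cornified genes, 19 of 22 ciliated cell genes and 14 of 22 peptide hormones. The same held for 13 of 15 thymocyte markers and 19 of 33 cell cycle genes. Over all 19617 tested genes it was more positive for 3255 and more negative for 3438. Thymocyte markers had a median of -3.54 among RFP- cells and -0.44 among RFP+ cells, and the part of thymocytes in these differences was not tested.

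**Figure D5:**
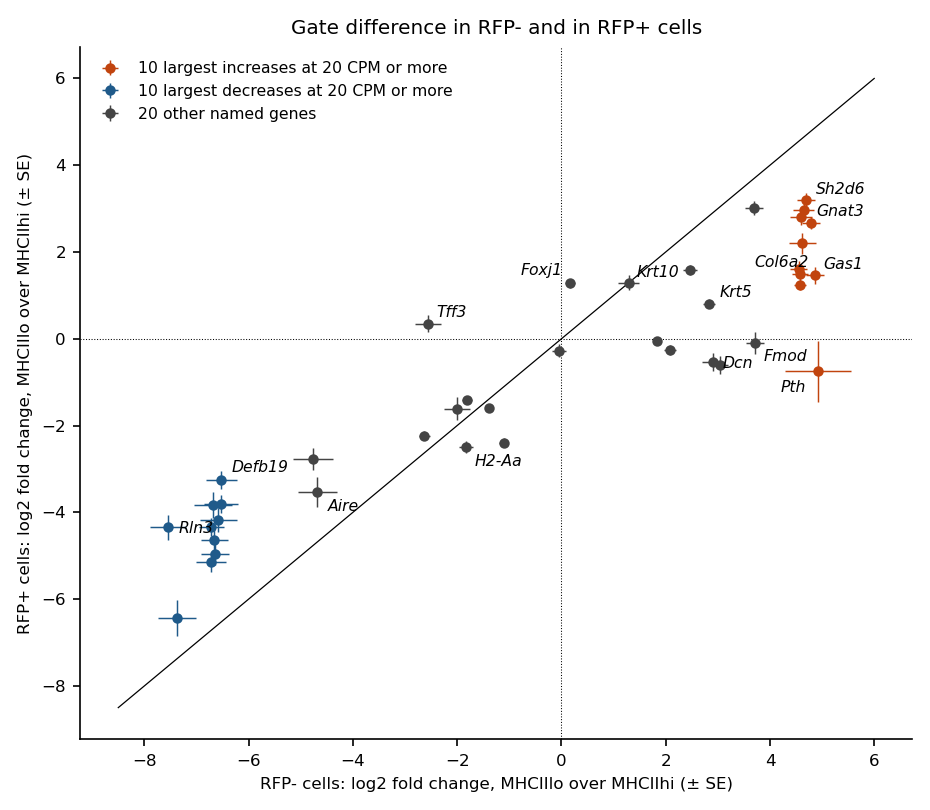
Log2 fold change of MHCIIlo over MHCIIhi among RFP- cells (x axis) and among RFP+ cells (y axis), with SE bars, for the 10 largest increases (red) and the 10 largest decreases (blue) named at 20 CPM or more with no overlap, and for 20 other named genes (grey). The line marks equal values, and *Pth*, *Dcn* and *Fmod* lie far to its right, near or under 0 among RFP+ cells.

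Places of the genes that led each group are given for GRCm38. *Rln3* (ENSMUSG00000045232) lies on chromosome 8, from 84042929 to 84045000 on the - strand. *Aire* (ENSMUSG00000000731) lies on chromosome 10, from 78030022 to 78043610 on the - strand. *Pth* (ENSMUSG00000059077) lies on chromosome 7, from 113385580 to 113388570 on the - strand. *Gas1* (ENSMUSG00000052957) lies on chromosome 13, from 60174405 to 60177365 on the - strand. *Trpm5* (ENSMUSG00000009246) lies on chromosome 7, from 143069153 to 143094642 on the - strand. *Col6a2* (ENSMUSG00000020241) lies on chromosome 10, from 76595762 to 76623630 on the - strand. *Fst* (ENSMUSG00000021765) lies on chromosome 13, from 114452290 to 114458951 on the - strand. *Igfbp5* (ENSMUSG00000026185) lies on chromosome 1, from 72857932 to 72874884 on the - strand. *Oas2* (ENSMUSG00000032690) lies on chromosome 5, from 120730333 to 120749853 on the - strand. These spans are whole genes, exons and introns together, from GENCODE M21.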

How the data were processed

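RNA of sorted mouse thymic epithelial cells was measured by RNA-seq in 16 libraries, 8 of them compared here. Per the labels' protocols, RNA was taken with poly(A) beads and libraries were made with NuGen Ovation V2 and Nextera XT. The authors deposited raw counts per gene, 1 file a library. STAR, GRCm38 and DESeq2 are named in the submitters' processing notes without versions. For the counting tool, strand setting and annotation release, nothing is given in the sources used here. Symbols, spans and gene types came from GENCODE M21, which matched 42548 of the gene IDs and left 884 without a symbol.

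Counts were filtered with edgeR 4.0.16 (filterByExpr, minimum count 10, minimum total 15), scaled by TMM and fitted over all 16 libraries, 1 mean per group, with the quasi-likelihood test in R 4.3.3. P-values were adjusted by the Benjamini-Hochberg method over 19617 genes, and the SE was the log2 fold change divided by the root of F. CPM values are counts scaled to the TMM-adjusted library size. The comparison, its genes and the 50 lists (917 genes) were chosen with earlier results of these data known. Named genes are the 15 largest called changes per direction at a mean of 20 CPM or more in the higher population and no overlap, passing over predicted genes and pseudogenes, up to 4 per direction and list at 5 CPM or more, and 23 genes of known role. Of the 209 genes in the text, the others (*Col2a1*, *Crh*, *Gcm2*, *H2-Ab1*, *H2-Eb1*, *Hoxa10*, *Hoxc12*, *Igkc*, *Iigp1*, *Isg15*, *Mx1*, *Mx2*, *Nppb*, *Oas3* and *Rsad2*) were chosen after their values were seen. A few list members are counted but not reported by name here. No 2 libraries of an RFP- group agreed within sampling noise (chi-square per degree of freedom 5.18 to 19.45 over 12 pairs). In RFP+ MHCIIlo, pairs with replicate 4 had 24.73 to 36.78, against 4.66 to 10.76 for the other pairs. Alternatives were other scalings, filters, DESeq2 1.42.0, limma 3.58.1 (voom), no mitochondrial or ribosomal RNA, a replicate block, the 8 RFP- libraries alone and each library left out.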

Additional observations from a re-analysis of the deposited data

Results flagged for a closer look

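In some groups of 4 libraries, 1 library lay far from the other 3 by Dixon's test at its 95% critical value, which chance alone gives for about 1 group in 20. This was found 25 times, 1 of them for a marker list and the rest among the 418 combinations of a named gene and a population. In RFP- MHCIIlo this held for *Ccl20* (169 CPM in replicate 1, lowest, against 229 to 232 in the others), *Cdx1* (47.2 CPM in replicate 4, highest, against 29.8 to 31.9 in the others) and *Fga* (0.425 CPM in replicate 1, highest, against 0.17 to 0.172 in the others). Also in RFP- MHCIIlo, a library stood apart for *Irf7* (129.7 CPM in replicate 2, lowest, against 137 to 138 in the others), *Mgp* (296 CPM in replicate 3, highest, against 179.6 to 192 in the others) and *Muc5b* (123 CPM in replicate 1, highest, against 72.8 to 75.9 in the others). Further such genes in RFP- MHCIIlo were *Mucl2* (0.688 CPM in replicate 4, highest, against 0.255 to 0.319 in the others), *Mx1* (39.2 CPM in replicate 3, highest, against 27.8 to 29.1 in the others) and *Notch3* (32.9 CPM in replicate 4, lowest, against 35.2 to 35.3 in the others). RFP- MHCIIlo libraries stood apart for *Porcn* (8.36 CPM in replicate 3, highest, against 6.06 to 6.45 in the others), *Rln3* (0.946 CPM in replicate 4, highest, against 0 to 0.0853 in the others) and the summed myeloid and dendritic markers (169 CPM in replicate 1, highest, against 133 to 138 in the others). In RFP- MHCIIhi this held for *Dnah11* (10.2 CPM in replicate 1, highest, against 8.21 to 8.52 in the others), *Egfr* (54.8 CPM in replicate 3, lowest, against 61.6 to 62.9 in the others) and *Gata6* (0.516 CPM in replicate 2, lowest, against 0.861 to 0.921 in the others). Also in RFP- MHCIIhi, a library stood apart for *Hba-x* (58.2 CPM in replicate 2, highest, against 50.8 to 52 in the others), *Hoxa5* (0.537 CPM in replicate 3, highest, against 0.323 to 0.345 in the others) and *Igfbp4* (16.9 CPM in replicate 1, highest, against 13.2 to 13.7 in the others). Further such genes in RFP- MHCIIhi were *Insm1* (95.1 CPM in replicate 3, highest, against 65.1 to 69.2 in the others), *Jun* (131 CPM in replicate 2, lowest, against 151 to 153 in the others) and *Myh3* (45.6 CPM in replicate 3, highest, against 42.8 to 43.3 in the others). RFP- MHCIIhi libraries stood apart for *Pth* (15.5 CPM in replicate 4, highest, against 13.5 to 13.8 in the others), *Sh2d6* (9.18 CPM in replicate 1, highest, against 6.78 to 7.16 in the others) and *Spib* (454 CPM in replicate 1, highest, against 371 to 381 in the others). The list for RFP- MHCIIhi went on with *Tnfsf9* (23.9 CPM in replicate 3, highest, against 17.2 to 17.7 in the others). All are given as values only.

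The difference between the gate effects among RFP- cells and among RFP+ cells was tested for 42 named genes, and 35 passed at an adjusted p under 0.05 (edgeR quasi-likelihood test). The log2 fold change of MHCIIlo over MHCIIhi was more positive among RFP- cells, by the log2 difference in brackets, for *Pth* (5.67), *Gas1* (3.4), *Ly6g6f* (2.13), *Sh2d6* (1.48), *Gnat3* (1.68), *Sobp* (2.42), *Sh2d7* (1.78), *Sult5a1* (3.1), *Col6a2* (3.35), *Fst* (2.95), *H2-Aa* (0.65), *Ciita* (1.28), *Krt5* (2.02), *Krt14* (2.34), *Trp63* (1.86), *Dcn* (3.43), *Prelp* (3.65), *Fmod* (3.81), *Dclk1* (0.68), *Pou2f3* (0.89) and *Trpm5* (1.65). It was more negative among RFP- cells for *Rln3* (-3.21), *Ceacam15* (-1.58), *Csn1s2a* (-2.38), *Mt4* (-2.85), *Hba-x* (-2.02), *Cytl1* (-1.68), *Ly6g* (-2.41), *Dppa3* (-2.72), *Defb19* (-3.26), *Fezf2* (-0.40), *Cd80* (-0.40), *Foxj1* (-1.11), *Ins2* (-1.99) and *Tff3* (-2.89). The calls of *Cd80* and *Fezf2* were lost in 14 and 10 of the alternatives, and those of *Ceacam15* and *Cytl1* with limma-voom and without some single libraries.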

How the results depend on the processing

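The 6 counts over all genes kept their size within 1.5-fold under all alternatives. Upper-quartile scaling gave 5668 called genes higher and 7816 lower, no filter 6500 and 8275, no mitochondrial and ribosomal RNA 6952 and 6531, and DESeq2 6185 and 7413. Upper-quartile scaling moved the median of all genes to -0.118, and with it the number of MHC class I presentation genes called lower was 7 rather than 4 and that of epithelial markers 2 rather than 1. The replicate numbers were not taken as pairing the libraries. Same-numbered RFP- libraries were weakly correlated in their deviations from the group means, at 0.078, 0.039, 0.051 and 0.063, and each correlated best with its own number, which is a hint from the data and not the design. Between RFP- MHCIIhi and RFP+ MHCIIhi the same-numbered values were 0.106, 0.041, 0.013 and 0.129. Between RFP- MHCIIlo and RFP+ MHCIIlo they were 0.124, 0.024, 0.015 and 0.02, and not every library there correlated best with its own number. The replicate block gave 6586 genes higher and 7069 lower, 3073 and 4394 past 2-fold, and 5 lysosomal proteases higher rather than 3. Of 209 named genes the gate difference changed sign only for 2 that were not called: *Pax1*, which ran from -0.18 to 0.07 as single libraries were left out, and *Gcm2*, at -0.04 with limma-voom and -0.02 to 0.63 as single libraries were left out. The difference between RFP- and RFP+ changed sign only for *Krt10*, which was not called, from -0.01 to 0.02 with no filter, 0.06 without mitochondrial and ribosomal RNA and -0.21 to 0.14 as single libraries were left out. The called differences of *Cd80* and *Fezf2* (both -0.40) were lost in 14 and 10 of the alternatives, while that of *Aire* passed in 8. With a filter of 1 CPM in 8 libraries, 1 Hox gene rather than 5 was higher and 9 rather than 14 lower. *Igkc* was called as higher with no filter (1.04), with the replicate block (1.32) and with the 8 RFP- libraries alone (1.07). Depth limits genes at few reads in 1 population, such as *Rln3*. The cause of these changes was not tested.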

Other observations

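Bitter taste receptors, the Tas2r family of chemosensory receptors, are on none of the lists and were looked at after their values were seen. The filter on low counts passed 26 of them. Since each was near 0 in RFP- MHCIIhi, a receptor could pass only through libraries where it was higher, so the direction of those that passed was largely fixed by the filter and no count or median of their changes is given. Summed over the 26 they gave 122, 82.7, 87.5 and 74.4 CPM in the RFP- MHCIIlo libraries, against 3.43, 2.07, 3.84 and 4.02 CPM in the RFP- MHCIIhi libraries. Each receptor was low, with group means of at most 11.6 CPM in RFP- MHCIIlo cells, against 0.543 CPM in RFP- MHCIIhi cells. Receptors of similar sequence can share reads, so their single counts are uncertain.

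Of 277 processed pseudogenes tested, 28.5% were higher and 14.1% lower by over 2-fold in RFP- MHCIIlo. Among 555 lincRNA genes the shares were 21.3% and 33.3%. Pseudogenes share sequence with their parent genes, and their counts are uncertain for that reason.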
